A study of Homo sapiens with 6 samples.

Results

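The expressed ZNF genes described here were 114 genes of the 17149 gene numbers in the tables. ZNF is the symbol given in series to human genes for zinc finger proteins. Members were chosen from their siControl levels: a symbol made of ZNF, a number and at most 1 letter, and at least 3 FPKM in each of the 3 siControl libraries. FPKM relate the fragments read from a gene to its length and to the size of the library, so levels of different genes can be set side by side. ZNF664 and ZNF680 were left out by name because their rises were already known. Of 500 ZNF symbols in the tables, 334 genes were tested, 218 of these lay under the floor, and all 114 members were tested.

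MDA-MB-231, an established human line of triple negative breast cancer, was transfected with control siRNA (siControl) or with siRNA against RBCK1 (siRBCK1), with no other agent or allele in either group. RBCK1, also called HOIL-1, is a subunit of the linear ubiquitin chain assembly complex. RNA was taken 48 h later and sequenced on the BGI platform in 3 libraries per group, which are numbered replicates with no word on separate cultures, so the spread behind each p-value may be technical. No source used here says which of the study's RBCK1 siRNAs was transfected, and 1 siRNA cannot tell loss of RBCK1 from other effects of that siRNA.

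RBCK1 itself stood at 65.0, 63.6 and 73.4 FPKM in siControl and at 41.5, 46.1 and 45.6 FPKM in siRBCK1, a fall by 0.59 on the log2 scale (adjusted p = 6.55e-05, limma). VIM, a mesenchymal marker, was at 1974 FPKM on average in siControl and CD44 at 219 FPKM, while CDH1, ESR1 and PGR were at 0.140 FPKM or less and PTPRC, PECAM1 and KRT5 at 0.233 FPKM or less, as means. EPCAM (7.36 FPKM) and ERBB2 (13.04 FPKM), set as low markers, were not near 0, and COL1A1, a fibroblast collagen gene, stood at 3.97 FPKM. In siRBCK1, COL1A1 (5.86 FPKM) and ERBB2 (18.2 FPKM) were higher and CD44 (184 FPKM) was lower, with adjusted p = 0.000566, 0.000553 and 0.00553 (limma), while VIM and EPCAM did not pass. Their part in the results was not tested. The sum of all FPKM was 614082.0 to 659065.0 in siControl and 587248.4 to 594194.1 in siRBCK1, read totals are unknown, and log2 values of libraries correlated at 0.995 or more within a group and at 0.986 or less between groups.

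Most ZNF proteins carry C2H2 zinc fingers, small folds in which a pair of cysteines and a pair of histidines hold a zinc ion, and a row of fingers reads a row of DNA bases. Many human members also carry a KRAB domain, which binds the co-repressor TRIM28 and through it recruits SETDB1, a histone methyltransferase that silences repeats. Others have a SCAN domain for pairing with each other, or no such domain and other tasks, from activating snRNA genes to ribosome assembly. KRAB genes lie in large part in clusters on chromosome 19.

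Of the 114 proteins, 113 could be read from a GENCODE transcript, and the pseudogene ZNF788P could not. C2H2 fingers were found in all but 4 of these, with a median of 7 fingers and the highest number, 35, in ZNF142. The 4 without a match were ZNF185, a LIM protein, ZNF330, ZNF839 and ZNF703. A KRAB domain was found in 38 members and a SCAN domain in 11, and 37 members lay on chromosome 19. The ZNF genes under the floor were richer in KRAB (169 of 218), with a median of 12 fingers.

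Promoter sequences of RefSeq (GRCh38.p14, 250 bases before to 50 after the gene start) were at hand for 98 members. The letters ACTACAA, part of the long site that ZNF143 and its paralog ZNF76 bind, were looked for on both strands because both of these genes are members. They stood in the promoters of 12 members (12.2%) and in 3.14% of those of tested ZNF genes that were not members. The share was 3.92% in the 8922 other tested genes with a promoter and 2.95% in all 27305 promoters. The 12 places are shown as 30 bases on the strand that reads ACTACAA, with these letters in capitals, so that the letters after them can be compared.
ZNF32: cggaatggACTACAActcccaggagtctcc
ZNF121: gggaagaaACTACAAtttctgtgtttgact
ZNF185: tgcaagacACTACAAatgcatgaagtgaca
ZNF277: ggccaagaACTACAAttcccagcgtgctgc
ZNF451: ggacccgaACTACAAttcccagcatcctgc
ZNF691: tccttaggACTACAActcccagcatgccac
ZNF444: caccccgaACTACAActcccaggaagcatc
ZNF317: acttcaaaACTACAAttcccagcatcctct
ZNF628: ctgggagaACTACAActcccaggatgccgc
ZNF697: ccccgggaACTACAAatcgaggcatgctgg
ZNF689: atcaggcgACTACAAggagttgtgaagcga
ZNF358: gcgggcgaACTACAAgtcccagcagctccc

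After the capitals, 8 of the 12 go on with any base and then tcccag. Written whole as ACTACAANTCCCAG, with each base found in most of the 12 and N where none was, a string made after these lines were seen, it was in 8.16% of members' promoters, 1.27% of those of other tested genes and 0.590% of all. Of the 12 genes, ZNF317, ZNF451 and ZNF121 were higher in siRBCK1, ZNF689 was lower and 8 did not pass the test. All genes tested had 36.8% higher and 17.1% lower calls. The median log2 fold change of the 12 was 0.12, against 0.14 for the 86 members without the letters. The shares of promoters describe the letters in this window, and nothing was measured on binding.

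The ETS letters CCGGAAG were in 44.9% of members' promoters and 42.9% of those of tested ZNF genes that were not members. Shares were 20.1% for other tested genes and 10.7% for all promoters. Members with and without them had median log2 fold changes of 0.14 and 0.12. GGGCGG (SP1) was in 70.4% of members and 72.2% of other tested genes (44.6% of all promoters), CCAAT (NF-Y) in 36.7% and 36.6% (35.7%), GCATGCG (NRF1) in 6.12% and 6.76% (4.13%), and ATGGCGG (YY1) in 10.2% and 11.1% (5.72%). Among tested ZNF genes that were not members, GGGCGG was in 60.2%, CCAAT in 53.4%, GCATGCG in 6.81% and ATGGCGG in 7.85%. GGAATG, read by the TEAD partners of YAP, was in 15.3% of members and 14.7% of these ZNF genes, against 10.7% of other tested genes and 14.05% of all promoters. Of the 15 members that held it, 3 were higher and 2 lower in siRBCK1, against 36.8% and 17.1% of all genes. Their median log2 fold change was 0.07.

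Members were called higher at the rate of all genes. At an adjusted p under 0.05 (limma on log2(FPKM + 1), adjusted over 11135 genes), 42 members were higher in siRBCK1 and 12 lower, while 60 did not pass, and 53.9% of all genes were called in either direction. Fold changes on this scale understate the change of genes of low FPKM, and a lower level in bulk RNA may mean fewer cells with the transcript or less of it per cell, which cannot be told apart. Higher calls made up 36.8% of members and 36.8% of all genes tested, and lower calls 10.5% of members and 17.1% of all genes. Calls varied with level, and the shares of other genes at like FPKM are given further below. The median log2 fold change was 0.13 over members and 0.11 over all genes. Measured against the median of other genes in the same of 20 levels of siControl FPKM, the members' median was -0.04, and against genes alike in both FPKM and GC content it was -0.00340. Groups did not overlap for 47 members with siRBCK1 higher and 16 with siRBCK1 lower, against 42.7% and 20.1% of all genes (62.8% in either direction). Since the siControl level chose the members and a pair of large rises was taken out, these counts describe the set, and nothing more is read from them.

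Both counts moved with how the libraries were scaled. A trimmed-mean scaling took the median of all genes from 0.11 to 0.01, and the members' split became 26 higher and 23 lower (all genes 24.8% and 25.3%). Quantile normalization gave 19 higher and 28 lower, with a member median of -0.02 (all genes 25.0% and 24.3%), and removal of length and GC trends 27 higher and 25 lower over 113 members (all genes 25.4% and 25.5%). No member changed from higher to lower or back. Under all of these scalings 18 rises and 11 falls without overlap remained, among them each of the 16 largest changes described below.

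**Figure D1:**
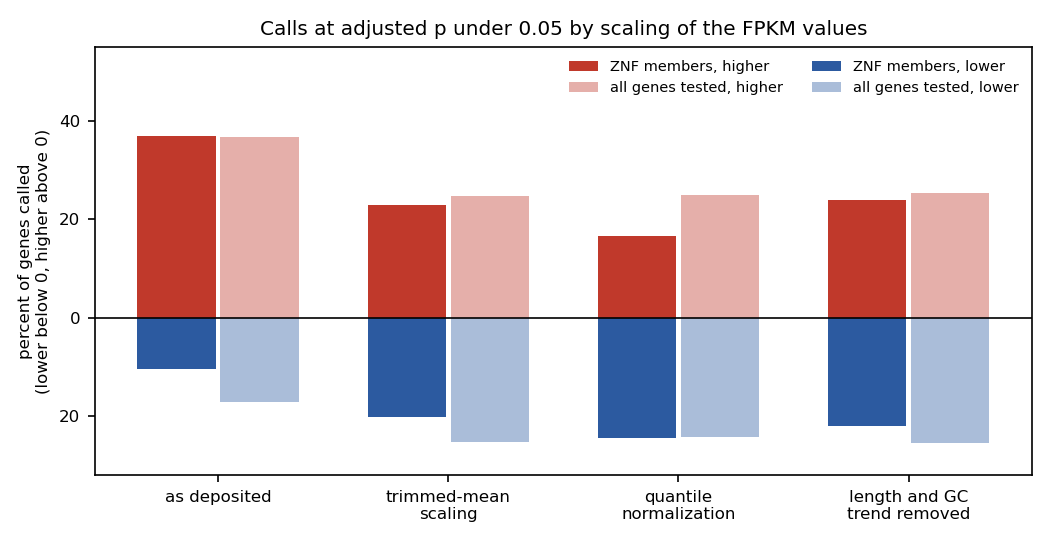
Percent of genes called higher (above 0) and lower (below 0) in siRBCK1 at an adjusted p under 0.05, for the ZNF members (full colour) and all genes tested (pale), by scaling of the FPKM values. The members went from 42 higher and 12 lower as deposited to 19 higher and 28 lower after quantile normalization, while all genes went from 36.8% and 17.1% to 25.0% and 24.3%.

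The choice of the floor also mattered. With members taken by a mean over all 6 libraries of at least 3 FPKM, 144 genes were in. Of these, 68 were higher (47.2%) and 12 lower (8.33%), against 36.8% and 17.1% of all genes. Their median was 0.20, and 0.05 above other genes at like FPKM. With the floor set on siRBCK1 libraries instead, 76 were higher and 11 lower. The size of that last set is not given here, so its counts cannot be set against these shares. A floor on siControl keeps out genes that reach it only after the knockdown, while both other floors let such genes in through their siRBCK1 values. More higher calls are built into that choice. The value relative to like FPKM shares this, since genes were matched on siControl alone, so nothing is read from these larger counts. Just inside it were ZNF83 (lowest siControl library 3.02 FPKM), ZNF561, ZNF775 and ZNF788P (3.04 FPKM each), with log2 fold changes of 0.65, -0.06, 0.17 and 0.48. Just outside were ZNF707 (2.99 FPKM), ZNF485 (2.98 FPKM) and ZNF93 (2.97 FPKM), with log2 fold changes of 0.33, 0.41 and 0.58. Of the 152 ZNF genes under the floor with a siControl mean of 1 to 3 FPKM, 82 were higher and 3 lower, against 35.0% and 7.004% of other genes in that range. Their median stood 0.10 above other genes at like FPKM and 0.06 above genes like in GC as well.

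ZNF367, a factor known to activate the fetal globin gene in erythroid cells, had the largest rise. It stood at 5.24, 5.40 and 4.99 FPKM in siControl and at 13.3, 11.9 and 11.7 FPKM in siRBCK1. Every siRBCK1 library was above every siControl library. The log2 fold change was 1.09 (SE 0.08, limma adjusted p = 2.22e-06), or 2.36 times by mean FPKM. The gene lies at chr9:96385941-96418370 and its transcript encodes 350 residues with 2 fingers found.

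ZNF76 was next, at 13.4, 15.4 and 14.1 FPKM in siControl and 26.8, 28.3 and 28.6 FPKM in siRBCK1. The log2 fold change was 0.92 (SE 0.07, limma adjusted p = 3.12e-06). Its paralog ZNF143, an activator of snRNA and many protein genes that also sits at chromatin loop anchors, stood at 7.28, 6.58 and 5.98 FPKM and then at 9.35, 8.88 and 9.91 FPKM. For ZNF143 the log2 fold change was 0.45 (SE 0.08, limma adjusted p = 0.00123). Groups did not overlap for either gene. Each has 7 fingers, and neither carries a KRAB or SCAN domain.

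ZNF146, or OZF, a protein made up almost wholly of fingers, was at 13.6, 12.9 and 10.2 FPKM in siControl and 21.0, 18.7 and 20.9 FPKM in siRBCK1. Its locus overlaps ZNF565 and strand use in counting is not stated, so reads of both genes may be mixed. ZNF83 with 14 fingers was at 3.34, 3.02 and 3.08 FPKM against 5.89, 5.22 and 5.47 FPKM. ZNF317, a KRAB gene with 13 fingers, was at 4.46, 4.41 and 4.32 FPKM against 7.34, 7.01 and 7.57 FPKM. All 3 lie on chromosome 19, with log2 fold changes of 0.69, 0.65 and 0.62 (adjusted p = 0.000223, 9.83e-05 and 7.26e-05, limma).

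ZNF232, ZNF195 and ZNF71 close the list of the 8 largest rises. ZNF232, with a SCAN domain, was at 3.53, 3.86 and 3.66 FPKM in siControl and 5.88, 5.86 and 6.68 FPKM in siRBCK1, and its locus overlaps USP6. The KRAB gene ZNF195 was at 4.52, 4.10 and 3.71 FPKM and then at 5.92, 6.76 and 7.61 FPKM. ZNF71, a KRAB gene with 13 fingers, was at 4.30, 3.85 and 4.28 FPKM and then at 6.97, 6.78 and 6.14 FPKM. No siRBCK1 library of the 3 genes was as low as a siControl library. The log2 fold changes were 0.61, 0.60 and 0.57 (adjusted p = 0.000165, 0.000589 and 0.000251, limma).

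ZNF496, whose mouse counterpart binds the histone methyltransferase NSD1, fell most, from 7.71, 8.24 and 7.95 FPKM in siControl to 4.63, 4.91 and 4.57 FPKM in siRBCK1. The log2 fold change was -0.65 (SE 0.07, limma adjusted p = 5.35e-05). ZNF496 is 1 of 7 members with both a KRAB and a SCAN domain and lies at chr1:247297415-247331867. ZNF703, a co-repressor known for its amplification in luminal breast cancer, was at 24.6, 24.1 and 24.1 FPKM and then at 14.5, 16.6 and 14.7 FPKM. Its log2 fold change was -0.64 (SE 0.07, limma adjusted p = 3.45e-05).

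ZNF296, known in mouse to aid reprogramming to pluripotency, was at 14.2, 13.2 and 14.4 FPKM in siControl and at 8.31, 8.72 and 8.71 FPKM in siRBCK1, with a log2 fold change of -0.64 (SE 0.07, limma adjusted p = 4.13e-05). ZNF296 lies at chr19:45071500-45076478 and overlaps GEMIN7. None of these 3 falls had overlapping groups, and the next in size, that of ZNF414, had a log2 fold change of -0.32.

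The other 5 falls were smaller. ZNF746, or PARIS, a KRAB repressor of PGC-1alpha that is a substrate of the ubiquitin ligase parkin, was at 9.70, 9.64 and 8.94 FPKM and then at 7.37, 7.40 and 7.86 FPKM. ZNF408, a gene of retinal vessel growth, was at 10.5, 12.3 and 12.1 FPKM and then at 9.45, 9.44 and 9.13 FPKM. Their log2 fold changes were -0.29 each (adjusted p = 0.00625 and 0.00872, limma). ZNF581 was at 27.9, 31.8 and 30.6 FPKM and then at 23.6, 26.8 and 25.02 FPKM, ZNF689 at 3.46, 3.77 and 3.27 FPKM and then at 2.91, 2.34 and 2.67 FPKM. ZNF414 was at 14.5, 12.9 and 12.96 FPKM and then at 8.36, 12.6 and 11.1 FPKM, with the widest spread of the 8.

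Calls of the last 3 were lost in some fits that left out 1 library. Adjusted p from limma became 0.05004 for ZNF581 without siRBCK1 replicate 1 (-0.21 on the log2 scale, against -0.25 with all libraries), and 0.0690 for ZNF689 without siRBCK1 replicate 2 (-0.25 against -0.31). For ZNF414 (adjusted p = 0.0422 with all libraries) it became 0.136, 0.0572 and 0.0503 without siControl replicates 1, 2 and 3, and 0.160 and 0.0616 without siRBCK1 replicates 1 and 3. Its log2 fold change in these fits was -0.17 without siRBCK1 replicate 1 and between -0.35 and -0.27 in the other 4. ZNF581 also overlaps ZNF580, which did not pass.

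**Figure D2:**
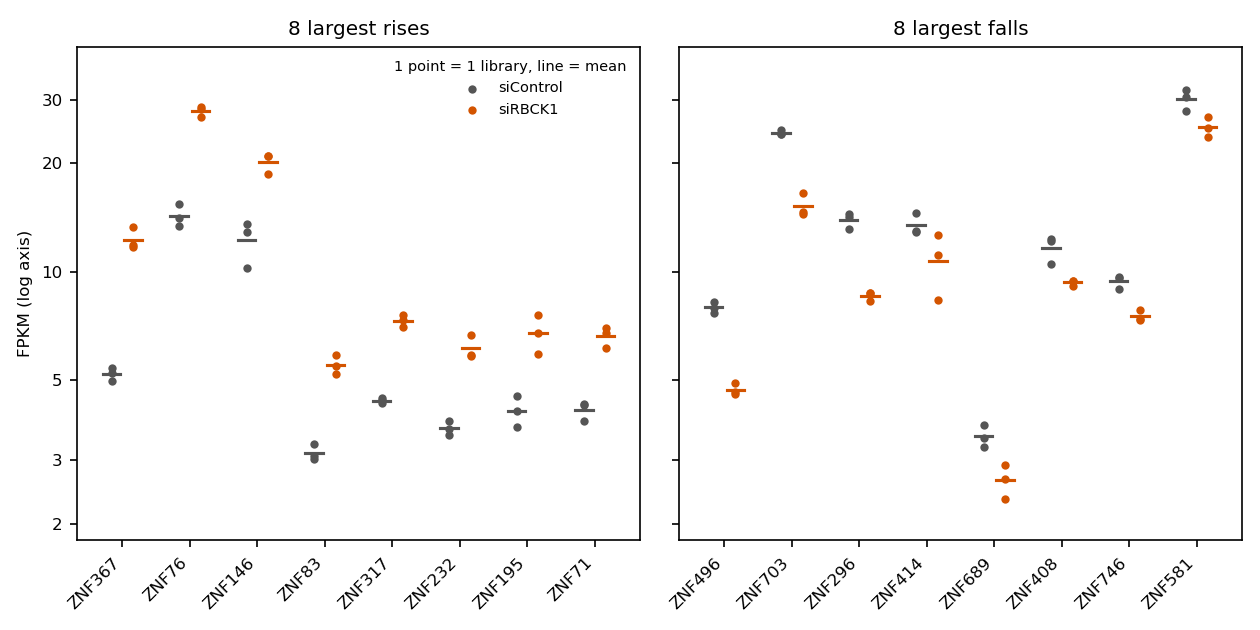
FPKM of each library (points, log axis) and group means (lines) in siControl (grey) and siRBCK1 (orange) for the 8 members with the largest rises and the 8 with the largest falls among those past the test without overlap. ZNF367 went from 4.99 to 5.40 FPKM up to 11.7 to 13.3 FPKM, and ZNF414 shows the widest spread among the falls.

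The 300 promoter bases of 4 genes are shown for reference: the largest rise, ZNF143, and 2 of the 3 largest falls. Capitals mark the letters searched for above on either strand. All are in the direction of the gene, from RefSeq GRCh38.p14: chr9:96418321-96418620 (minus strand), chr11:9460762-9461061 (plus), chr1:247331818-247332117 (minus) and chr19:45076429-45076728 (minus).
ZNF367 promoter: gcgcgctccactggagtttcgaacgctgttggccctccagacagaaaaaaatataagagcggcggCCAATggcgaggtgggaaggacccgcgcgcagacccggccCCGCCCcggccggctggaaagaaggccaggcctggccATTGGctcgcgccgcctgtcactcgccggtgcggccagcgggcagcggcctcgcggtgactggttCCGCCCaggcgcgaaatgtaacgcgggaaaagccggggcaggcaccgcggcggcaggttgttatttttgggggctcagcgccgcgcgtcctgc
ZNF143 promoter: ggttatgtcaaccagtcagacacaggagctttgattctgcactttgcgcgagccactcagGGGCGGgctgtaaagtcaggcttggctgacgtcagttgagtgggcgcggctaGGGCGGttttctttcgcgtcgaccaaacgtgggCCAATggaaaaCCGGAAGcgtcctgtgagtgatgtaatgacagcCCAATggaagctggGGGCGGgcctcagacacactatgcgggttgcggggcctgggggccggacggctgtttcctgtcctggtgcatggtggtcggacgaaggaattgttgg
ZNF496 promoter: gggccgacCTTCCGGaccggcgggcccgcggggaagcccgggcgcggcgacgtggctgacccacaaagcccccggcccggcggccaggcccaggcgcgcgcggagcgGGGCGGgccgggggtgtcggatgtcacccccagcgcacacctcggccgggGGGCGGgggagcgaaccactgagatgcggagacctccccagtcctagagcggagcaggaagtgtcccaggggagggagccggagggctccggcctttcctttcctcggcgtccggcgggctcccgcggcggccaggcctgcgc
ZNF296 promoter: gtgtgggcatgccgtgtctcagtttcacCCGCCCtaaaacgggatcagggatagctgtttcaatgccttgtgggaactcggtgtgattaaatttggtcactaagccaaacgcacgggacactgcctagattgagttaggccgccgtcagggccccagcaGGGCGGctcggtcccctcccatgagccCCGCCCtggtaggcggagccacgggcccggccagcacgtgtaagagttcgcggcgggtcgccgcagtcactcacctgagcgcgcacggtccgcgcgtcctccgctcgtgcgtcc

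CCAAT or its complement stood in the promoters of ZNF367 and ZNF143 and in neither of the others, and GGGCGG or its complement in all 4. GC content was 69.0% for the ZNF367 promoter, 59.3% for ZNF143, 78.3% for ZNF496 and 64.3% for ZNF296. Nothing is read from a contrast of 4 chosen promoters. Over all 98 members, 36 held CCAAT, with 13 higher and 3 lower calls and a median log2 fold change of 0.16. The 62 without had 24 higher and 6 lower calls and a median of 0.11. All genes tested had 36.8% higher and 17.1% lower calls.

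Members linked to RNA, ribosomes and mitosis ran from 6.59 FPKM (ZNF346) to the highest level of all, as siControl means. ZNF593, whose yeast counterpart acts late in assembly of the large ribosomal subunit, stood at the top, at 146, 140 and 148 FPKM in siControl and 121, 136 and 116 FPKM in siRBCK1. The log2 fold change was -0.22 (adjusted p = 0.0117, limma), and without siRBCK1 replicate 3 the adjusted p was 0.0651. With length and GC trends removed, ZNF593 had -0.08 and did not pass (adjusted p = 0.217, limma). ZNF622, a factor of the same pathway, moved the other way, from 18.9, 18.8 and 19.2 FPKM to 23.0, 25.7 and 22.9 FPKM, with a log2 fold change of 0.31 (adjusted p = 0.00205, limma).

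ZNF207, or BuGZ, which helps load BUB3 on kinetochores, was at 55.4, 53.8 and 52.2 FPKM and then at 51.1, 46.3 and 46.8 FPKM. Its log2 fold change was -0.16 (adjusted p = 0.0341, limma), and the adjusted p became 0.105, 0.0570, 0.125 and 0.129 without siControl replicates 1 and 2 and siRBCK1 replicates 2 and 3. ZNF346, a binder of double-stranded RNA, had 0.24 on the log2 scale (limma, adjusted p = 0.0349) that did not pass in 5 of the 6 fits that left out 1 library (adjusted p between 0.0541 and 0.124, values of 0.19 to 0.26), the exception being siControl replicate 2. ZNF346 did not pass under trimmed-mean scaling (0.13), quantile normalization (0.08) or removal of length and GC trends (0.13) either. ZNF598, the ubiquitin ligase of collided ribosomes (27.0 against 30.0 FPKM), and ZNF330, a nucleolar protein (13.8 against 15.6 FPKM), did not pass. In all, 2 of these 6 members were higher and 2 lower, against 36.8% and 17.1% of all genes.

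The 4 other members of highest level were ZNF511 (83.4 FPKM as a siControl mean), ZNF580 (62.0 FPKM), ZNF207 and ZNF358 (43.1 FPKM). In siControl no neighbours in this order overlapped, although the libraries of ZNF580 (56.6 to 65.5 FPKM) began just above those of ZNF207 (52.2 to 55.4 FPKM). In siRBCK1 the ranges of ZNF580 (47.6 to 69.2 FPKM) and ZNF207 (46.3 to 51.1 FPKM) overlapped. ZNF511, ZNF580 and ZNF358 had log2 fold changes between -0.11 and -0.06 and did not pass.

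Among activators and repressors outside the KRAB class, 4 of 5 members were higher, against 36.8% of all genes, and ZNF703 was lower. Under trimmed-mean scaling and under quantile normalization 1 of the 5, ZNF143, was higher. With length and GC trends removed 3 of the 5 were higher, ZNF143, ZNF384 and ZNF219. Besides ZNF143, ZNF410, known as an activator devoted to CHD4, rose from 15.9, 16.3 and 17.8 FPKM to 19.6, 20.1 and 20.6 FPKM, a log2 fold change of 0.26 (adjusted p = 0.00622, limma). CHD4, a remodeller of the NuRD complex, stood at 22.2 FPKM and then at 20.3 FPKM and did not pass. ZNF384 had 0.24 on the log2 scale (limma, adjusted p = 0.0134, and 0.0543 without siRBCK1 replicate 3). ZNF219 had 0.28 with overlapping groups, and its adjusted p of 0.0341 (limma) became 0.0652, 0.0794, 0.139 and 0.0986 without siControl replicates 2 and 3 and siRBCK1 replicates 2 and 3. Under trimmed-mean scaling the values of ZNF410, ZNF384 and ZNF219 were 0.15, 0.13 and 0.18, and none of the 3 passed.

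Of 5 members from chromatin complexes, 1 was called higher and 0 lower, against 36.8% and 17.1% of all genes. Trimmed-mean scaling gave 0 higher and 1 lower, quantile normalization 0 and 2, and removal of length and GC trends 0 and 1. ZNF592, a partner of ZMYND8 along with ZNF687, had 0.25 on the log2 scale (limma, adjusted p = 0.0327), but its adjusted p lay between 0.0586 and 0.120 in 5 of the 6 fits without 1 library, the exception being siControl replicate 2. Its value was 0.20 to 0.26 in those 5 fits, 0.15 under trimmed-mean scaling (adjusted p = 0.122, limma) and 0.09 after quantile normalization (adjusted p = 0.339, limma). ZNF687 went from 8.76 to 8.24 FPKM and did not pass, though it was called lower under both of these scalings, with -0.18 and -0.23. ZNF644, which acts with the methyltransferase G9a, went from 6.50 to 5.92 FPKM and did not pass. It was called lower after quantile normalization, with -0.28, and with length and GC trends removed, with -0.37. ZNF217, amplified in breast cancer, went from 4.66 to 4.69 FPKM and did not pass. ZNF274, which brings SETDB1 to the ends of ZNF genes, was at 14.2 FPKM and 15.1 FPKM. ZNF185, an actin-linked LIM protein, was at 21.0 and 22.6 FPKM and did not pass.

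Members with and without a KRAB domain had like counts, and all genes had 36.8% higher and 17.1% lower calls. Of 38 with a KRAB domain, 13 were higher and 4 lower, with a median log2 fold change of 0.11, and of 75 without, 28 were higher and 8 lower, with a median of 0.14. Against genes alike in FPKM and GC content, these medians were -0.03 and 0.02. The likeness covers members only. Under the floor, 113 of 169 KRAB genes were higher and 3 lower, and of 49 genes without KRAB 21 were higher and 1 lower. Against genes alike in FPKM and GC content, the medians there were 0.15 and 0.09. Genes under the floor can enter the test through siRBCK1 values alone, which favours higher calls, so nothing is read from that split. SCAN members counted 5 higher and 1 lower of 11, against 36.8% and 17.1% of all genes, with a median of 0.26. On chromosome 19, 12 of 37 members were higher and 3 lower, with a median of 0.08, against 30 and 9 of 77 elsewhere, with a median of 0.14. The 650 other tested genes of chromosome 19 had 22.0% higher and 27.8% lower calls and a median of -0.02. They differed from the members there in median siControl level (24.5 against 7.11 FPKM) and median GC content (61.0% against 53.4%). Against genes alike in FPKM and GC content, the medians were 0.00586 for these genes, -0.00369 for members of chromosome 19 and 0.00606 for members elsewhere.

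Finger number gave no clear order either, with medians of 0.14, 0.08, 0.17 and 0.16 for members of 1 to 3, 4 to 7, 8 to 11 and 12 or more fingers. Members with at least 3 copies of the linker TGEKP or TGERP between fingers counted 19 higher and 1 lower of 44. The 69 with fewer counted 22 higher and 11 lower, and all genes had 36.8% higher and 17.1% lower calls. The medians of both linker groups against genes alike in FPKM and GC content were 0.09 and -0.04. These groups were set side by side with no test. The linker split and its cut at 3 were not on the planned list of features, so nothing is read from that contrast.

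KRAB proteins act through shared silencing machinery, whose genes were measured in the same libraries. Of 22 genes on that list, 21 were tested, 11 were higher and 1 lower (all genes 36.8% and 17.1%), with a median log2 fold change of 0.22, which was 0.06 relative to genes at like FPKM. TRIM28, the KRAB partner, stood at 207, 215 and 217 FPKM in siControl and 203, 212 and 198 FPKM in siRBCK1, with overlapping groups (adjusted p = 0.355, limma). SETDB1 was at 5.71 and 6.46 FPKM and did not pass. HDAC1 rose from 52.8 to 88.0 FPKM and HDAC2 from 36.5 to 52.6 FPKM, and both are shared with many other complexes.

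TASOR, the scaffold of the HUSH silencing complex, rose from 4.08 to 6.85 FPKM, with a log2 fold change of 0.63 (adjusted p = 0.000116, limma). UHRF1, which guides DNMT1 to replicated DNA, had 0.68, the remodeller SMARCAD1 0.63 and ATRX, a chaperone of histone H3.3, 0.65, while its partner DAXX fell, with -0.23 (adjusted p = 0.00622, limma). Under trimmed-mean scaling 6 were higher and 3 lower, since the rises of CBX3, CBX5, MPHOSPH8, PPHLN1 and DNMT1 no longer passed and TRIM28 and CHD4 were called lower.

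Level and base composition moved with the change, in members and other genes alike. Of 34 members at 3 to 5 FPKM in siControl, 17 were higher and 1 lower, against 40.1% and 10.5% of other genes in that range. Of 36 members at 5 to 10 FPKM, 13 were higher and 2 lower, against 42.5% and 11.3% of other genes. Of 30 members at 10 to 20 FPKM, 12 were higher and 4 lower, against 42.6% and 14.9% of other genes. Of 14 at 20 FPKM or more, 0 members were higher and 5 lower by limma. At an unadjusted p under 0.05, 1 of these 14 was higher, and 1 was called when libraries were weighted by their quality. Other genes at 20 to 200 FPKM counted 30.9% higher and 26.5% lower. Spearman's rho of log2 fold change with siControl mean was -0.32 over 114 members and -0.27 over 10801 other genes. These values run across genes of the same 6 libraries, and genes are not independent replicates. The siControl values are also part of the fold change, so their shared noise pulls rho below 0 by an amount that was not tested. Members needed at least 3 FPKM in each siControl library, while other genes needed only a siControl mean in the range, so the sets differ near the floor.

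**Figure D3:**
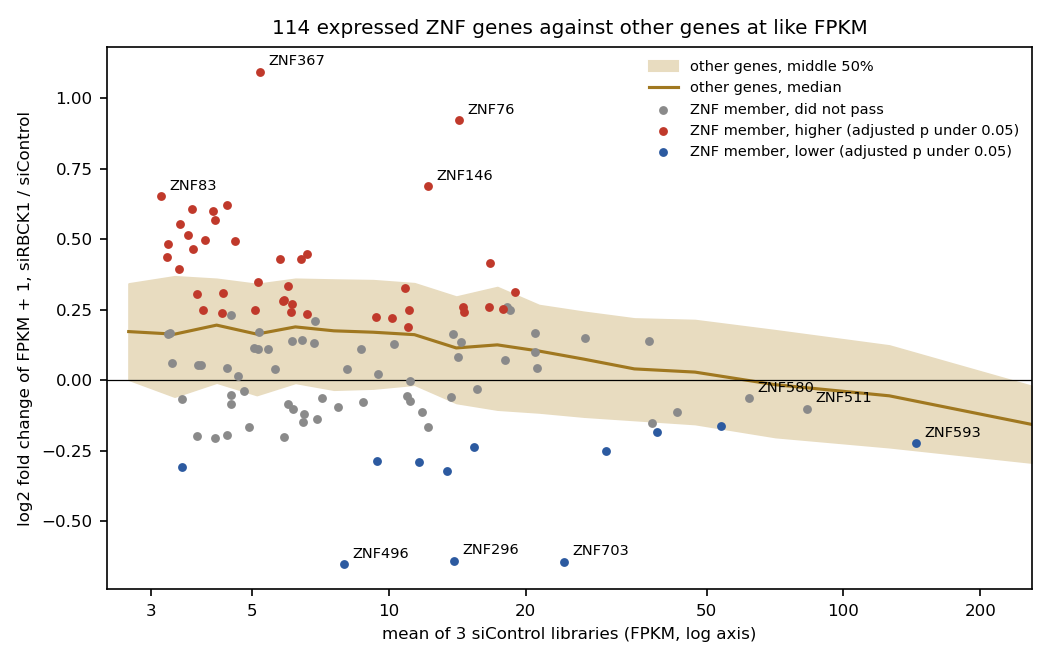
Log2 fold change of FPKM + 1 against the mean siControl FPKM (log axis) for the 114 members, coloured by call, with the median (line) and interquartile range (band) of other genes at like FPKM. Members scatter around the line, with ZNF367 and ZNF76 far above it and ZNF496, ZNF296 and ZNF703 far below.

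Transcript GC content ran from 37.3% to 71.1% over members. In the quintile of highest GC content (37 members), 4 were higher (10.8%) and 8 lower (21.6%), with a median of -0.06. Other genes of that quintile had 21.5% higher and 29.6% lower calls and a median of -0.03. In the 3 lowest quintiles, members had medians of 0.19, 0.22 and 0.22 and other genes 0.22, 0.17 and 0.10. The rho of change with GC content was -0.34 over 113 members and -0.28 over 10722 other genes. ZNF76 (58.9% GC) rose against this trend, while ZNF296 (68.1%) and ZNF703 (65.2%) fell further than it. Relative to genes alike in FPKM and GC content the differences were 0.84 for ZNF76, 0.88 for ZNF367, -0.73 for ZNF496, -0.68 for ZNF296 and -0.62 for ZNF703. The part of GC content in these changes was not tested.

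**Figure D4:**
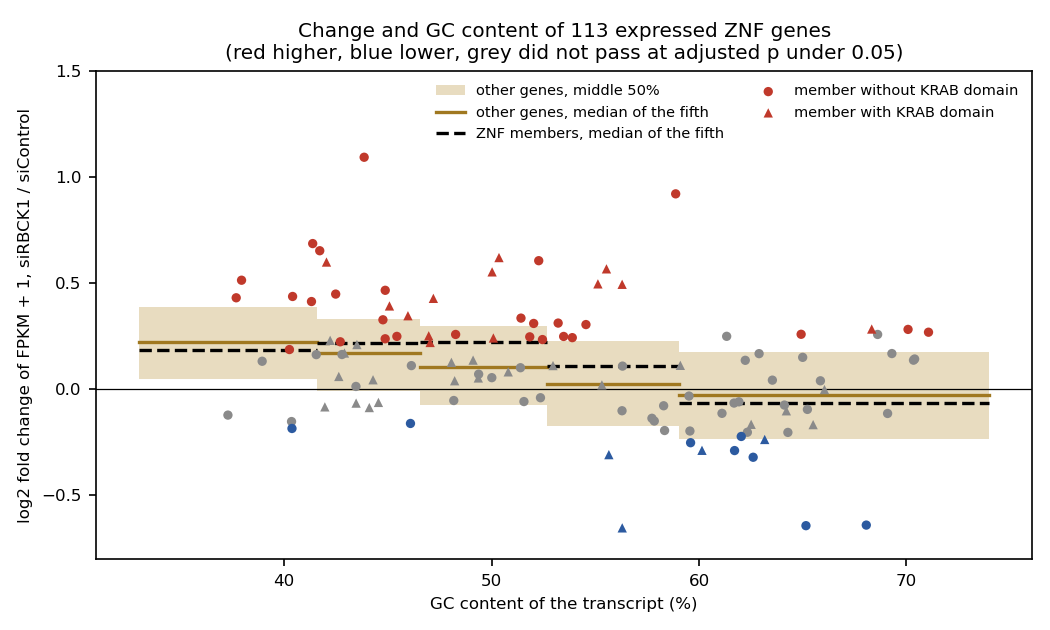
Log2 fold change of FPKM + 1 against transcript GC content for 113 members (triangles with and circles without a KRAB domain, red higher, blue lower, grey did not pass), with medians of members (dashed) and medians and interquartile ranges of other genes (solid, band) per quintile of GC content. Medians fall from 0.19 in the lowest quintile to -0.06 in the highest for members.

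Members lying within 1000000 bases of the next formed 8 groups of 3 or more. Of their 44 genes 13 were higher and 6 lower, which is near the shares of all genes (36.8% and 17.1%), and 3 of the 8 groups held both directions. On chr7:149195546-150398630, picked after its values were seen, ZNF212 rose from 4.18, 4.12 and 3.54 FPKM to 5.51, 5.98 and 6.46 FPKM. Its neighbour ZNF282 fell from 15.8, 14.9 and 15.4 FPKM to 12.6, 13.7 and 12.4 FPKM, and ZNF746, given above, fell too. ZNF777 and ZNF775 did not pass. ZNF212 and ZNF282 both carry KRAB domains and do not overlap.

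On chr19:7513880-9675100, ZNF317, ZNF266 and ZNF121 were higher, ZNF414 was lower, and ZNF561 and ZNF562, which are close in sequence, had -0.06 and 0.06 and did not pass. On chr19:55476617-56624486, ZNF71, ZNF865 and ZNF524 of 9 members were higher and ZNF581 was lower. Over the whole set, locus overlap with another gene of the tables was found for 28 members. The 86 others had 32 higher and 10 lower calls and a median of 0.14. Stretches of 51 bases shared with other genes made up at most 7.99% of a member's transcript.

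ZNF664 and ZNF680, left out by name, stood at 5.53, 5.47 and 4.60 FPKM and 1.43, 1.23 and 0.870 FPKM in siControl, and at 22.5, 20.5 and 22.4 FPKM and 5.54, 4.96 and 5.71 FPKM in siRBCK1. ZNF680 would also have been under the floor, and with both added the counts were 44 higher and 12 lower. Other C2H2 families at the same floor are set beside all genes, with 36.8% higher and 17.1% lower calls. Of 15 ZBTB genes 6 were higher and 2 lower, with a median of 0.21, or 0.04 relative to genes at like FPKM. Of 10 KLF and SP genes 3 were higher and 0 lower, with a median of 0.20, or 0.03 relative to genes at like FPKM. Higher and lower calls were 3 and 1 of 5 ZSCAN, 2 and 0 of 2 ZKSCAN and 2 and 1 of 3 ZFP genes, whose ZFP36 is a CCCH protein.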

How the data were processed

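FPKM tables of 6 libraries were used as the authors deposited them, with 2 decimals and gene numbers in place of names. The submitters' processing notes name GRCh38, and for the aligner, the counting tool and strand use the sources used here give nothing. No counts or read totals came with them, so depth is unknown, no count test was run and no interval for counting error is given. RefSeq (GRCh38.p14) gave symbols for 17022 gene numbers and left 127 without. The table of siRBCK1 replicate 2 carries the column name of replicate 1, and 0.502% of 10549 genes compared were equal to 2 decimals, so both stayed in as separate libraries.

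A gene entered the test at 1 FPKM or more in 3 or more libraries. The test was limma 3.58.1 (R 4.3.3, trended empirical Bayes, Benjamini-Hochberg adjustment over 11135 genes, pseudocount 1), tested on simulated data first. Transcript features came from the GENCODE 29 transcript with the longest coding sequence, and KRAB and SCAN domains from profile searches with pyhmmer 0.12.3 at an E value of 0.001. Genes alike in FPKM were other genes in the same of 20 bins. Genes alike in FPKM and GC content were those in the same quintile of both.

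Members and lists were chosen with earlier results of these data known. Named were the 8 largest rises and 8 largest falls past the test without overlap, the 5 highest levels, 3 genes on each side of the floor (with ZNF788P, tied for the third place) and members of the role lists. Alternatives covered scaling, pseudocount, filters, library weights, a replicate term, each library left out, length and GC trends, and the floor.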

Additional observations from a re-analysis of the deposited data

How the results depend on the processing

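The counts moved most with scaling and the floor. Against 42 higher, 12 lower and a median log2 fold change of 0.13, trimmed-mean scaling gave 26, 23 and 0.0222, quantile normalization 19, 28 and -0.0177, removal of length and GC trends 27, 25 and 0.0230, and trimmed-mean scaling without siControl replicate 3, chosen after seeing the data, 26, 22 and 0.0192. A floor on the mean of all 6 libraries gave 68 higher and 12 lower of 144 genes, against 36.8% and 17.1% of all genes. The median there was 0.20, and 0.0468 above other genes at like FPKM. A floor on siRBCK1, with a set size not given here, gave 76, 11, 0.24 and 0.0540. Both of these floors let genes in through their siRBCK1 values, so nothing is read from the larger counts. The causes were not tested. Without 1 library, 29 to 39 members were higher and 8 to 12 lower, with medians of 0.10 to 0.14, and -0.05 to -0.02 relative to genes at like FPKM. Library quality weights were lowest for siControl replicate 3, at 0.217 against 0.585 to 3.08 for the others. That library also had the lowest correlations of the siControl libraries with siRBCK1 libraries (0.979 to 0.981).

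The pseudocount of 0.1, both other filters, library weights, ZNF664 and ZNF680 included, members without an overlapping locus and like GC content kept all counts within 1.5 times the main value and the median relative to like FPKM below 0. Deviations of same-numbered libraries from their group means correlated at -0.06, -0.19 and -0.04. With 3 libraries per group, these values cannot tell whether same-numbered libraries shared a culture or a batch. With a replicate block, 35 members were higher and 10 lower. Of 40 named genes, none reversed a call under any of the 15 refits, and ZNF367, ZNF76, ZNF146, ZNF83, ZNF317, ZNF232, ZNF195, ZNF71, ZNF143, ZNF622, ZNF93, ZNF485, ZNF496, ZNF703, ZNF296, ZNF408 and ZNF746 kept theirs in each refit that tested them. With unknown depth, changes of genes near 3 FPKM rest on an unknown number of reads.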
